A study of Mus musculus with 9 samples.

Results

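The MHC class II genes described here are the 7 genes for the antigen-presenting chains and their helpers that were counted in mouse macrophages, H2-Aa, H2-Ab1, H2-Eb1, Cd74, H2-DMa, H2-DMb1 and H2-DMb2, together with Ciita, the gene for the class II transactivator. They were chosen by gene symbol, each matched to its Ensembl identifier, and make 8 of the 22524 genes counted. All 8 passed the filter on low counts, which left 11560 genes for testing. RNA sequencing had been done on C57BL/6 primary macrophages grown from bone marrow for 7 days, in 3 groups of 3 libraries. The LPS SRF-KO group came from macrophages without SRF (serum response factor, a transcription factor), given LPS (lipopolysaccharide, a bacterial cell wall component) for 6 h. The LPS control group was wild type with the same LPS treatment, and the untreated control group was wild type without LPS. The labels used here give neither the SRF allele, nor what drives its deletion, nor the LPS dose, nor whether the libraries of a group stem from different mice or dishes. The p-values therefore measure only the spread between these libraries, and that spread may be technical. No untreated SRF-KO library was analysed here, so the effect of SRF loss before LPS could not be separated from its effect after LPS.

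MHC class II molecules are pairs of an alpha and a beta chain that carry peptides from engulfed material to the cell surface, where CD4 T cells read them. H2-Aa and H2-Ab1 encode the chains of I-A, and H2-Eb1 encodes the beta chain of I-E, which C57BL/6 mice do not assemble because their gene for the I-E alpha chain is defective. Cd74, the invariant chain, blocks the peptide groove until proteases cut it away, and H2-DM, made of H2-DMa and an H2-DMb chain, exchanges its remnant for peptides. Ciita binds no DNA itself but is recruited by RFX, CREB and NF-Y proteins to the X and Y boxes of class II promoters, and it is often the limiting factor for their transcription. In macrophages Ciita is classically induced by interferon gamma.

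Total counts per library were 16987011 to 24912173 in LPS SRF-KO, 15321839 to 19009123 in LPS control and 15867737 to 17606538 in untreated control. Levels are given as CPM, counts scaled to a common library total after TMM normalization, which sets the scale of each library so that most genes do not differ. Srf itself, the check of the genotype labels, had 34, 24 and 12 counts in the LPS SRF-KO libraries, 738, 799 and 900 in LPS control and 810, 975 and 884 in untreated control. The genotypes also differed in 4 Y-linked genes (Ddx3y, Uty, Kdm5d and Eif2s3y), whose summed counts were 1 to 3 per LPS SRF-KO library, 1700 to 2183 per LPS control library and 2179 to 2749 per untreated control library. Genotype and sex of the cells therefore cannot be told apart. The scaling matters for genes that differ little: with library totals alone the median log2 fold change of all tested genes was 0.37 for LPS SRF-KO against LPS control, -0.57 for LPS control against untreated control and -0.20 for LPS SRF-KO against untreated control, where TMM gave 0.01, -0.02 and -0.01.

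With TMM scaling the MHC class II genes moved in both directions. LPS SRF-KO macrophages had 1.71-fold more H2-Ab1 and 3.25-fold more Ciita RNA than LPS control macrophages, which both scalings gave, and less Cd74 and H2-DMa, which did not pass with library totals. LPS control macrophages had 1.7-fold more H2-Ab1 than untreated control macrophages and slightly less H2-Aa, in these directions with both scalings. Of the 8 genes, 3 were higher (H2-Ab1, H2-Eb1 and Ciita), 3 lower (H2-Aa, H2-DMa and Cd74) and 2 not called (H2-DMb1 and H2-DMb2) in LPS SRF-KO against LPS control, at an adjusted p below 0.05 in edgeR's quasi-likelihood test (Benjamini-Hochberg method, over all tested genes). Of all tested genes 39.1% were called higher and 37.9% lower in this comparison, 77.0% in all, so 6 called genes of 8 is close to the share among all genes. With library totals 5 of the 8 were higher and none lower, and of all tested genes 7059 were higher and 2434 lower, against 4521 and 4384 with TMM. The CPM ranges of these groups did not overlap for 4 of the 8 (H2-Ab1, Ciita, Cd74 and H2-DMa), beside 78.0% of all tested genes. In LPS control against untreated control, 3 were higher (H2-Ab1, Cd74 and Ciita), 1 lower (H2-Aa) and 4 not called, where 40.8% of all tested genes were called higher and 40.8% lower (81.7% in all). With library totals 1 of the 8 was higher and 6 lower, and of all tested genes 2428 were higher and 7835 lower, against 4722 and 4721 with TMM. There the ranges did not overlap for 3 of the 8 (H2-Ab1, H2-Aa and Cd74), beside 82.1% of all tested genes. The medians of the 8 log2 fold changes were 0.07 and 0.02, beside 0.01 and -0.02 over all tested genes. These comparisons share the LPS control libraries. In RNA from whole cultures, fewer cells of a type and less RNA per cell cannot be told apart.

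**Figure D1:**
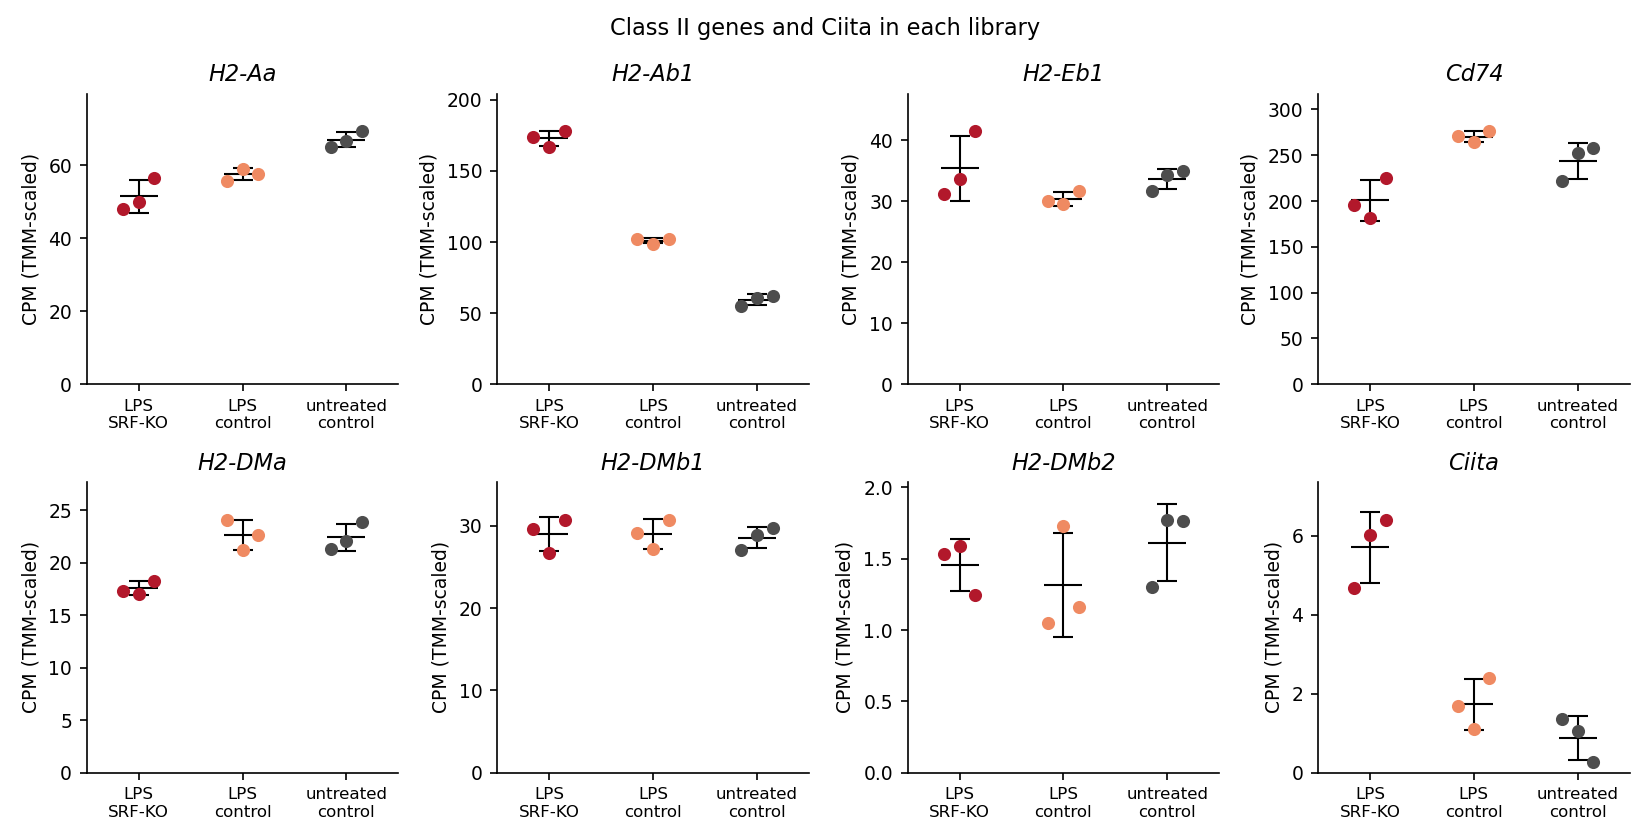
Levels of the 8 genes, in CPM after TMM scaling (vertical axes, linear, from 0), in each library of the 3 groups (horizontal axes). Points are libraries and bars the mean and SD of 3 libraries. H2-Ab1 lies between 167 and 178 CPM in LPS SRF-KO, between 98.9 and 102 CPM in LPS control and between 55.0 and 62.2 CPM in untreated control, while H2-DMb1 averages 29.0, 29.0 and 28.6 CPM in these groups.

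Of the 8 genes 6 lie together on chromosome 17, between 34119541 and 34316674 (GRCm38, gene positions from GENCODE release 21). Their promoters are shown because the X and Y boxes are where the factors that recruit Ciita bind. RefSeq (GRCm38.p6) promoter windows matched 5 of the 8 genes, H2-Aa, H2-Eb1, H2-DMa, H2-DMb1 and H2-DMb2, and 3 further class II genes described below, H2-Ob, H2-Oa and H2-Eb2. The stretches from 140 to 31 bases before the start of 5 of these genes are printed 5′ to 3′ on the strand of the gene. They lie at chr17:34287854-34287963 (minus strand) for H2-Aa, and on the plus strand at chr17:34305727-34305836 for H2-Eb1, chr17:34145109-34145218 for H2-DMb2, chr17:34238765-34238874 for H2-Ob and chr17:34325535-34325644 for H2-Eb2, none of them over an annotated exon. Capitals mark the Y box core ATTGG and, where it lies 10 to 35 bases before that core, the letters GCAAC of the X box.
H2-Aa: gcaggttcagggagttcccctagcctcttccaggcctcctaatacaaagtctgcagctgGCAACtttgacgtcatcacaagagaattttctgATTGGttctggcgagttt
H2-Eb1: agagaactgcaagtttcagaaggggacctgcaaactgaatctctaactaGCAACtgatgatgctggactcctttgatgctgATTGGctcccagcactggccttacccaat
H2-DMb2: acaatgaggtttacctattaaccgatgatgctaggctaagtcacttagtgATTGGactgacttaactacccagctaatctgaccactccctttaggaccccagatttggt
H2-Ob: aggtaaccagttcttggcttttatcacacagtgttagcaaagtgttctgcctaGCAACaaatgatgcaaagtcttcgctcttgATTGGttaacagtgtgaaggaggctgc
H2-Eb2: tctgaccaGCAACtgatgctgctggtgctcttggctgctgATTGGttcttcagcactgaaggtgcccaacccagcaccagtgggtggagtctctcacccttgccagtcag

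Both boxes were searched on both strands over the full windows, from 250 bases before to 50 after the start. The letters GCAAC followed by ATTGG stood 28 bases apart in H2-Aa and 27 bases apart in H2-Eb1, a combination found in 1.22% of the 32851 promoter windows of the same length. A stricter X box, GCAACNG, followed by ATTGG was present in H2-Eb1, beside 0.408% of all windows. The longer Y box CTGATTGG, which contains ATTGG, was present in H2-Aa and H2-Eb1 and in 4.1% of all windows. H2-DMb1 held ATTGG with only the looser letters GNAAC before it, a combination found in 4.19% of all windows. H2-DMb2 held ATTGG (37.4% of all windows) with no GNAAC in the 10 to 35 bases before it, and neither H2-DMa window held a combination. The searches for GCAAC and GNAAC were added after the sequences had been seen. A match is a run of letters and not a measured binding site.

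H2-Ab1, the beta chain of I-A (ENSMUSG00000073421, chromosome 17, 34257689 to 34269419, plus strand), had 174, 167 and 178 CPM in LPS SRF-KO, 102, 98.9 and 102 CPM in LPS control and 55.0, 61.0 and 62.2 CPM in untreated control. The 3 groups did not overlap, with LPS SRF-KO the highest and untreated control the lowest. The means were 173 ± 5.52, 101 ± 1.87 and 59.4 ± 3.86 CPM (SD, n = 3 each). In edgeR's quasi-likelihood test the log2 fold change was 0.77 (SE 0.0446, adjusted p = 2.42e-18) for LPS SRF-KO against LPS control and 0.77 (SE 0.0486, adjusted p = 3.52e-17) for LPS control against untreated control. With library totals these were 1.13 and 0.22, in the same direction and both called.

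H2-Aa, the alpha chain that pairs with it (ENSMUSG00000036594, chromosome 17, 34282744 to 34287823, minus strand), ran the other way with TMM scaling. It had 48.0, 49.99 and 56.6 CPM in LPS SRF-KO, 55.8, 59.1 and 57.7 CPM in LPS control and 65.2, 66.7 and 69.3 CPM in untreated control. The 2 LPS groups overlapped through the third LPS SRF-KO library, and both lay wholly below untreated control. The log2 fold change was -0.17 (SE 0.0563, adjusted p = 0.00807, edgeR's quasi-likelihood test) for LPS SRF-KO against LPS control, but -0.12 with adjusted p = 0.0783 without LPS SRF-KO library 1. With library totals it was 0.19 and called higher (adjusted p = 0.00237, same test), so the scaling decided the direction of the call. For LPS control against untreated control it was -0.22 (SE 0.0552, adjusted p = 0.000486), and -0.77 with library totals.

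H2-Eb1, the beta chain of I-E (ENSMUSG00000060586, chromosome 17, 34305867 to 34316674, plus strand), differed less with TMM scaling. Its levels were 31.1, 33.6 and 41.4 CPM in LPS SRF-KO, 30.0, 29.6 and 31.8 CPM in LPS control and 31.8, 34.3 and 34.9 CPM in untreated control. The groups overlapped, and the third LPS SRF-KO library stood above the other 8 libraries. The log2 fold change of 0.20 for LPS SRF-KO against LPS control (SE 0.0757, adjusted p = 0.0145, edgeR's quasi-likelihood test) rested on single libraries: it was 0.09 with adjusted p = 0.244 without LPS SRF-KO library 3, and 0.18 with adjusted p = 0.0525 without LPS control library 2. Against untreated control, LPS control had -0.14 (SE 0.0767, adjusted p = 0.0855), and it passed the test at -0.18 (adjusted p = 0.0345) without untreated control library 1 and at -0.14 (adjusted p = 0.0442) without LPS SRF-KO library 3, which enters through the shared estimate of the spread. With library totals the log2 fold changes of H2-Eb1 were 0.56 for LPS SRF-KO against LPS control and -0.69 for LPS control against untreated control, both called.

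The 3 chain genes can be set against each other within a library, which no scaling between libraries can alter. Of the summed counts of H2-Ab1, H2-Aa and H2-Eb1, H2-Ab1 made 68.7%, 66.6% and 64.4% in the LPS SRF-KO libraries, 54.4%, 52.7% and 53.3% in LPS control and 36.2%, 37.6% and 37.4% in untreated control. The groups did not overlap, and the order was that of the H2-Ab1 level. H2-Aa made 19.8% ± 0.764, 30.4% ± 0.945 and 41.9% ± 0.889 in LPS SRF-KO, LPS control and untreated control, and H2-Eb1 13.6% ± 1.36, 16.1% ± 0.436 and 21% ± 0.153 (SD, n = 3 each). Counts of H2-Ab1 per count of its partner H2-Aa averaged 3.37 ± 0.241 in LPS SRF-KO, 1.76 ± 0.0808 in LPS control and 0.885 ± 0.0367 in untreated control. These shares were added after the data had been seen and are given without a test. They follow gene length as well as RNA amount, so only their change between groups can be read.

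**Figure D2:**
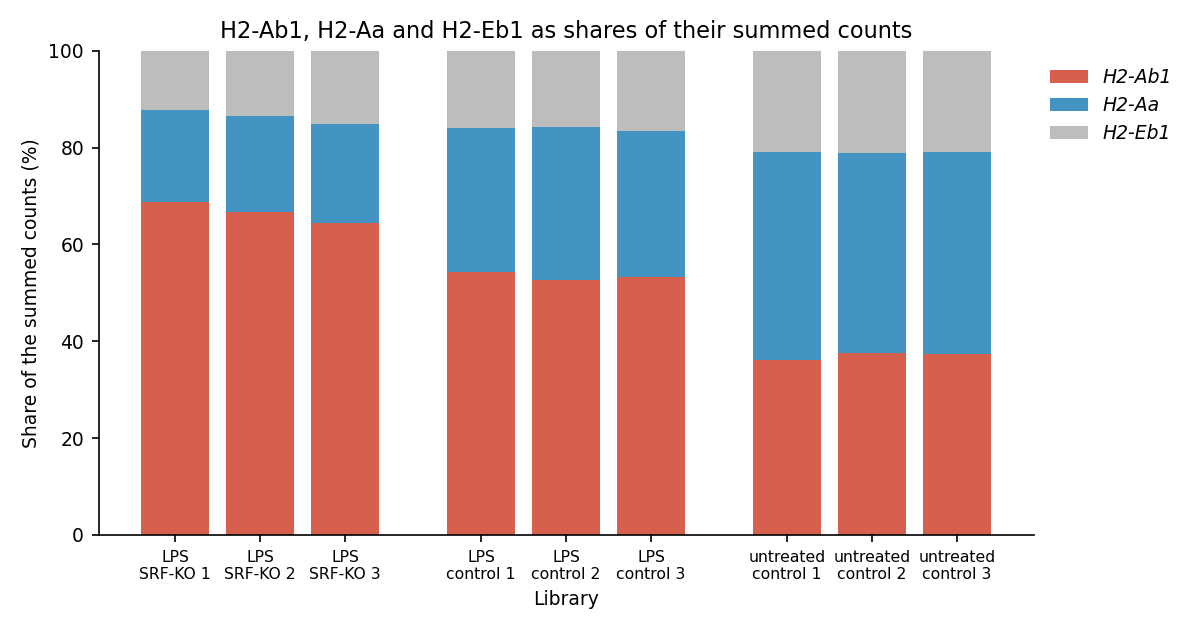
Shares of H2-Ab1 (bottom), H2-Aa (middle) and H2-Eb1 (top) in the summed counts of these 3 genes, in percent (vertical axis), for each of the 9 libraries (horizontal axis). The H2-Ab1 share lies between 64.4% and 68.7% in LPS SRF-KO, between 52.7% and 54.4% in LPS control and between 36.2% and 37.6% in untreated control.

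Cd74, the invariant chain (ENSMUSG00000024610, chromosome 18, 60803848 to 60812652, plus strand), had 196, 181 and 225 CPM in LPS SRF-KO, 271, 264 and 276 CPM in LPS control and 222, 253 and 258 CPM in untreated control. LPS control lay wholly above both other groups, which overlapped each other. The log2 fold change was -0.43 (SE 0.0613, adjusted p = 1.23e-06, edgeR's quasi-likelihood test) for LPS SRF-KO against LPS control, but -0.08 with adjusted p = 0.236 with library totals. Against untreated control, LPS control had 0.15 (SE 0.0609, adjusted p = 0.0297), which lost the call at 0.08 (adjusted p = 0.18) without untreated control library 1 and at 0.13 (adjusted p = 0.0827) without LPS control library 3, and turned to -0.40 with library totals. Within libraries, Cd74 had 0.773, 0.723 and 0.815 counts per count of the 3 chain genes together in LPS SRF-KO, 1.44, 1.41 and 1.44 in LPS control and 1.46, 1.56 and 1.55 in untreated control. H2-Ab1 makes up most of that chain sum in LPS SRF-KO. Per count of H2-Aa alone, Cd74 had 3.89 ± 0.24 counts in LPS SRF-KO, 4.7 ± 0.202 in LPS control and 3.64 ± 0.208 in untreated control, so that LPS SRF-KO was the lowest group per chain sum but not per H2-Aa count.

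H2-DMa, the alpha chain of the peptide editor H2-DM (ENSMUSG00000037649, chromosome 17, 34119541 to 34139101, plus strand), had 17.4, 17.1 and 18.3 CPM in LPS SRF-KO, 24.1, 21.2 and 22.7 CPM in LPS control and 21.3, 22.1 and 23.9 CPM in untreated control. LPS SRF-KO lay wholly below the other groups, which overlapped. The log2 fold change was -0.37 (SE 0.0756, adjusted p = 4.02e-05, edgeR's quasi-likelihood test) for LPS SRF-KO against LPS control, and -0.01 with library totals (adjusted p = 0.88). It was 0.01 for LPS control against untreated control (SE 0.0737, adjusted p = 0.867), and -0.54 with library totals. Brd2, a gene for a chromatin reader on the opposite strand, overlaps 360 of the 3448 exon bases of H2-DMa (10.4%), and the strand setting of the counting is not given in the sources used here. Brd2 had a log2 fold change of -0.54 for LPS SRF-KO against LPS control and 0.87 for LPS control against untreated control, and its part in the H2-DMa counts was not tested.

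H2-DMb1, a beta chain of H2-DM (ENSMUSG00000079547, chromosome 17, 34153072 to 34160230, plus strand), had 29.7, 26.7 and 30.7 CPM in LPS SRF-KO, 29.1, 27.2 and 30.7 CPM in LPS control and 27.1, 28.9 and 29.7 CPM in untreated control. The groups overlapped throughout. Its log2 fold changes were -0.01 (SE 0.0687, adjusted p = 0.927) and 0.02 (SE 0.0693, adjusted p = 0.763) in edgeR's quasi-likelihood test. With library totals they were 0.35, called higher, and -0.53, called lower, both close to the shifts of all genes under that scaling. H2-DMb2, the second beta chain gene (ENSMUSG00000037548, chromosome 17, 34143307 to 34151555, plus strand), was low, at 1.46 ± 0.182 CPM in LPS SRF-KO, 1.31 ± 0.364 CPM in LPS control and 1.61 ± 0.268 CPM in untreated control, and passed the test in neither comparison (adjusted p = 0.589 and 0.316). With library totals instead, H2-DMb2 had a log2 fold change of 0.51 for LPS SRF-KO against LPS control, not called. For LPS control against untreated control it was -0.83 with that scaling and called lower. H2-DMb1 and H2-DMb2 share 369 stretches of 50 identical transcript bases (22.7% of those of H2-DMb1), so reads may have been split or lost between them. Within libraries, H2-DMb1 had 1.65 ± 0.0777 counts per H2-DMa count in LPS SRF-KO, 1.28 ± 0.07 in LPS control and 1.27 ± 0.0351 in untreated control.

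Ciita, the transactivator (ENSMUSG00000022504, chromosome 16, 10480059 to 10528418, plus strand), had the lowest level of the 8 genes per kilobase of transcript in every group, in LPS SRF-KO by the principal transcript within the spread of H2-DMb2. It had 104, 156 and 113 counts in the LPS SRF-KO libraries, 21, 16 and 37 in LPS control and 28, 22 and 5 in untreated control. In CPM these were 4.69, 6.04 and 6.41 in LPS SRF-KO, 1.69, 1.11 and 2.39 in LPS control and 1.35, 1.05 and 0.267 in untreated control. LPS SRF-KO lay wholly above both other groups, which overlapped each other. The log2 fold change was 1.70 (SE 0.23, adjusted p = 2.24e-08, edgeR's quasi-likelihood test) for LPS SRF-KO against LPS control, and 2.05 with library totals. For LPS control against untreated control it was 0.93 (SE 0.336, adjusted p = 0.0107), and this call did not hold: it was 0.54 (adjusted p = 0.101) without untreated control library 3, 0.60 (adjusted p = 0.173) without LPS control library 3, 0.96 (adjusted p = 0.0905) in DESeq2's Wald test and 0.39 (adjusted p = 0.272) with library totals. Ciita reached the level of the filter through the LPS groups.

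Dexi, a small gene on the opposite strand, overlaps 329 of the 9535 exon bases of Ciita (3.5%). Its counts were 270, 324 and 273 in the LPS SRF-KO libraries, 98, 114 and 110 in LPS control and 110, 102 and 82 in untreated control. Dexi was therefore also higher in LPS SRF-KO, at a log2 fold change of 0.80 against LPS control (adjusted p = 3.5e-08, edgeR's quasi-likelihood test), and its part in the Ciita counts was not tested. Ciita is read from several alternative promoters in different cell types, and counts per gene cannot tell them apart.

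**Figure D3:**
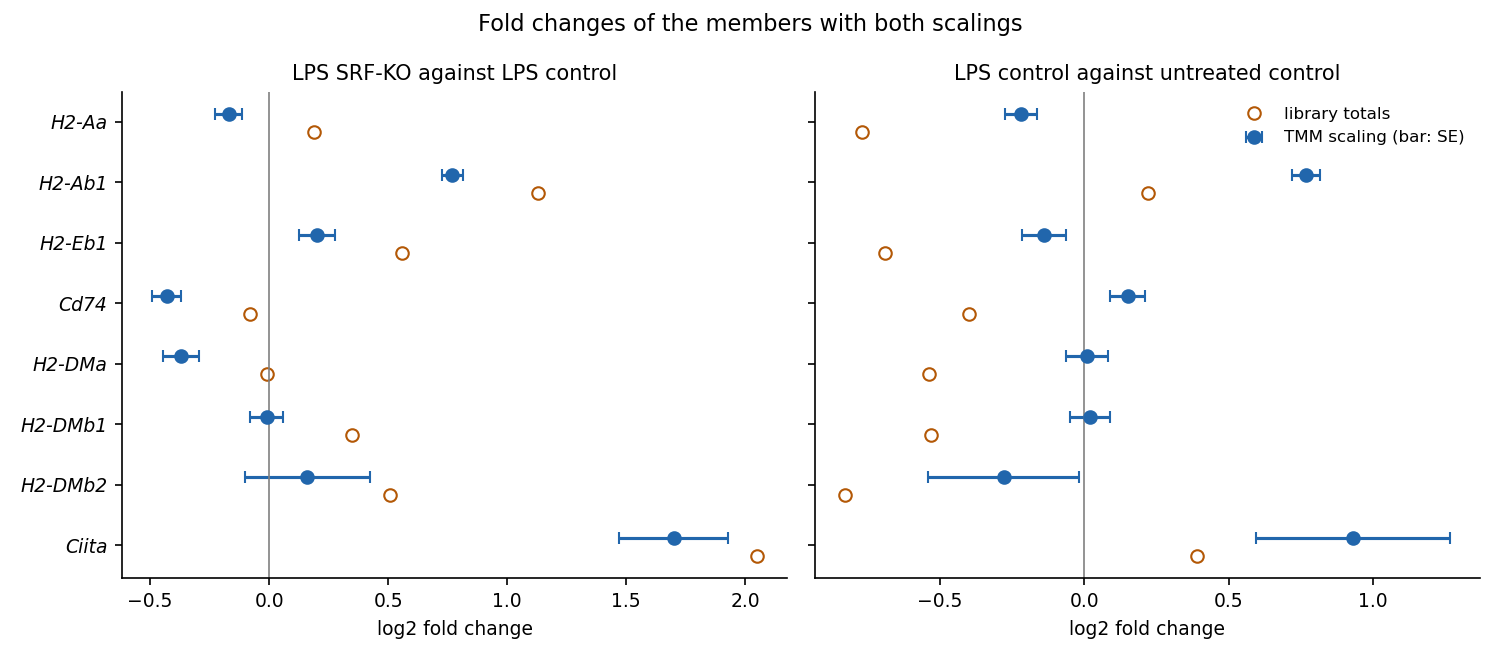
Log2 fold changes of the 8 genes (horizontal axes) for LPS SRF-KO against LPS control (left) and LPS control against untreated control (right), with TMM scaling (filled, bars are SE) and with library totals (open). The change of scaling moves all genes by about the same amount, to the right on the left and to the left on the right, so that H2-Aa and H2-DMb1 cross 0 on the left and Cd74, H2-DMa and H2-DMb1 cross it on the right, while H2-Ab1 and Ciita stay above 0 in both.

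Set directly against untreated control, LPS SRF-KO macrophages had 2.91-fold more H2-Ab1 and 6.21-fold more Ciita. In edgeR's quasi-likelihood test the log2 fold changes were 1.54 (SE 0.0456, adjusted p = 8.17e-28) for H2-Ab1 and 2.63 (SE 0.24, adjusted p = 1.37e-12) for Ciita, with no overlap between the groups. Ciita reached the level of the filter only through the LPS groups, so its being tested here depended on groups where it was higher. Its call held with no filter on low counts. H2-Aa (-0.38, adjusted p = 3.4e-08), H2-DMa (-0.35, adjusted p = 2.9e-05) and Cd74 (-0.29, adjusted p = 0.000195) were lower, and these 5 calls held in the same direction with library totals. H2-Eb1 (0.06), H2-DMb1 (0.02) and H2-DMb2 (-0.12) did not pass with TMM scaling. With library totals H2-DMb1 was called lower at -0.18 (adjusted p = 0.0126, edgeR's quasi-likelihood test). Of all tested genes 39.4% were called higher and 40.1% lower in this comparison, 79.5% in all, and the ranges did not overlap for 79.5% of all tested genes and for 4 of the 8 (H2-Ab1, Ciita, H2-Aa and H2-DMa). It joins the effects of LPS and of SRF loss, and the libraries are those of the comparisons above.

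Per kilobase of the principal transcript, the order of the levels in LPS SRF-KO was H2-Ab1 (143 ± 4.56 CPM per kb) and Cd74 (142 ± 15.8), which did not differ beyond their spread, then H2-Aa (45.7), H2-Eb1 (21.2) and H2-DMb1 (20.7), again within their spread, H2-DMa (10.6), H2-DMb2 (1.02) and Ciita (0.951). In LPS control Cd74 led with 192 ± 4.24 CPM per kb before H2-Ab1 with 83.3 ± 1.55. In untreated control Cd74 had 173 ± 13.9 CPM per kb, before H2-Aa with 59.5 and H2-Ab1 with 49.0 ± 3.19. The places of H2-DMa, H2-DMb2 and Ciita at the lower end were the same when the length was the union of all exons. By that length Cd74 led in all 3 groups, at 119, 161 and 145 CPM per kb in LPS SRF-KO, LPS control and untreated control, and H2-Aa fell to 13.6, 15.2 and 17.7 CPM per kb.

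Further class II chain genes outside the 8 had low counts. H2-Oa and H2-Ob encode H2-O, which holds back H2-DM, and H2-Eb2 is a beta chain gene beside H2-Eb1. H2-Ob averaged 4.41 ± 0.376 CPM in LPS SRF-KO, 1.30 ± 0.135 CPM in LPS control and 0.995 ± 0.0704 CPM in untreated control (SD, n = 3 each). It was higher in LPS SRF-KO than in LPS control by 1.75 on the log2 scale (adjusted p = 4.63e-10, edgeR's quasi-likelihood test), where 39.1% of all tested genes were higher. H2-Oa had 28, 30 and 37 counts in LPS SRF-KO, 8, 9 and 4 in LPS control and 4, 8 and 1 in untreated control. H2-Eb2 had 22, 26 and 17 counts in LPS SRF-KO, 0, 2 and 0 in LPS control and 3, 0 and 0 in untreated control, a ratio of 21 to LPS control with an exact 95% counting interval of 5.57 to 177. H2-Oa and H2-Eb2 passed the filter only through LPS SRF-KO, so that a difference was built into their being tested and their values are given as a description. In the promoter windows, GCAAC stood 25 bases before ATTGG in H2-Ob, 27 in H2-Eb2 and 28 in H2-Oa. H2-Eb2 and H2-Oa also held CTGATTGG, and H2-Eb2 the stricter GCAACNG before ATTGG. H2-Ob (0.38, adjusted p = 0.19) did not pass the test for LPS control against untreated control.

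Of the 7 promoter factors, the RFX, NF-Y and CREB proteins at the X and Y boxes, 2 were higher and 2 lower in LPS SRF-KO against LPS control, beside 39.1% higher and 37.9% lower of all tested genes. Rfx5, the DNA-binding subunit of RFX, averaged 20.4 ± 1.11 CPM in LPS SRF-KO, 33.3 ± 1.72 CPM in LPS control and 13.6 ± 1.0 CPM in untreated control. It was lower in LPS SRF-KO by a log2 fold change of -0.70 (adjusted p = 2.04e-11, edgeR's quasi-likelihood test) and higher in LPS control than in untreated control at 1.29 (adjusted p = 3.14e-18), with the same directions and calls under library totals. LPS SRF-KO thus had more Ciita and less Rfx5 RNA than LPS control. Nfyb (0.35) and Nfyc (0.28) were higher and Nfya (-0.30, or 0.05 and not called with library totals) lower in LPS SRF-KO, all NF-Y subunits, while Rfxap, Rfxank and Creb1 did not pass. The count was 5 higher and 1 lower with library totals. For LPS control against untreated control it was 5 higher with the other 2 not called with TMM, but 1 higher and 4 lower with library totals. Of all tested genes 40.8% were higher and 40.8% lower in that comparison with TMM, and their median log2 fold change was -0.57 with library totals.

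Of 17 tested regulators and cofactors of Ciita, 15 were lower and the other 2, Prdm1 and Crebbp, not called in LPS SRF-KO against LPS control by edgeR's quasi-likelihood test (2 higher and 14 lower with library totals), and 16 were higher and 1 lower in LPS control against untreated control (13 and 3 with library totals). Over all tested genes 37.9% were lower in the first comparison and 40.8% higher in the second. Ifngr2, a chain of the interferon gamma receptor, averaged 244 ± 4.1 CPM in LPS SRF-KO, 480 ± 19.6 CPM in LPS control and 136 ± 4.91 CPM in untreated control (SD, n = 3 each). Its log2 fold changes were -0.97 and 1.82. Jak2, the kinase on that receptor, had 608 ± 18.9, 826 ± 9.84 and 45.7 ± 2.12 CPM in these groups, and Socs1, which inhibits the kinases, 50.5 ± 0.934, 72.5 ± 2.82 and 2.74 ± 0.465 CPM. All 3 were lower in LPS SRF-KO than in LPS control and higher in LPS control than in untreated control, with both scalings.

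Of 9 genes for antigen processing, 1 was higher and 7 lower in LPS SRF-KO against LPS control (39.1% and 37.9% of all tested genes), or 4 and 5 with library totals (7059 and 2434 of the 11560 tested genes). Lgmn, an endopeptidase that can start the cutting of the invariant chain, averaged 212 ± 7.21 CPM in LPS SRF-KO, 1330 ± 23.8 CPM in LPS control and 1700 ± 36.9 CPM in untreated control. Ctss, cathepsin S, which finishes it, averaged 1800 ± 27 CPM in LPS SRF-KO, 3740 ± 85.1 CPM in LPS control and 3120 ± 67.6 CPM in untreated control. The log2 fold changes for LPS SRF-KO against LPS control were -2.64 for Lgmn, -1.06 for Ctss, -1.41 for the lysosomal protease gene Ctsb and -0.45 for Sppl2a, whose protease clears the membrane stub of the invariant chain, all lower with both scalings. For LPS control against untreated control 4 were higher and 4 lower, or 1 and 7 with library totals. This stands beside 40.8% higher and 40.8% lower of all tested genes with TMM, and a median log2 fold change of -0.57 with library totals.

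Of 5 tested genes for class II turnover and traffic, 1 was higher and 3 lower in LPS SRF-KO against LPS control, or 3 and 2 with library totals. The 4 called of 5 stand beside 77.0% of all tested genes. March1, a ubiquitin ligase that removes class II from the surface, averaged 237 ± 6.66 CPM in LPS SRF-KO, 380 ± 10.4 CPM in LPS control and 34.6 ± 1.13 CPM in untreated control. Its log2 fold changes were -0.68 and 3.46, with the same directions under library totals. Cd83, which protects class II from March1, had log2 fold changes of -0.67 and 0.79. March8 (0.12) was higher and Rab7 (-0.15, or 0.21 with library totals) lower in LPS SRF-KO, Ap1m1 did not pass and Arl14 had no count in any library. For LPS control against untreated control 3 were higher and 1 lower, or 2 and 3 with library totals. Of all tested genes 40.8% were higher and 40.8% lower there with TMM, and library totals moved their median log2 fold change to -0.57.

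**Figure D4:**
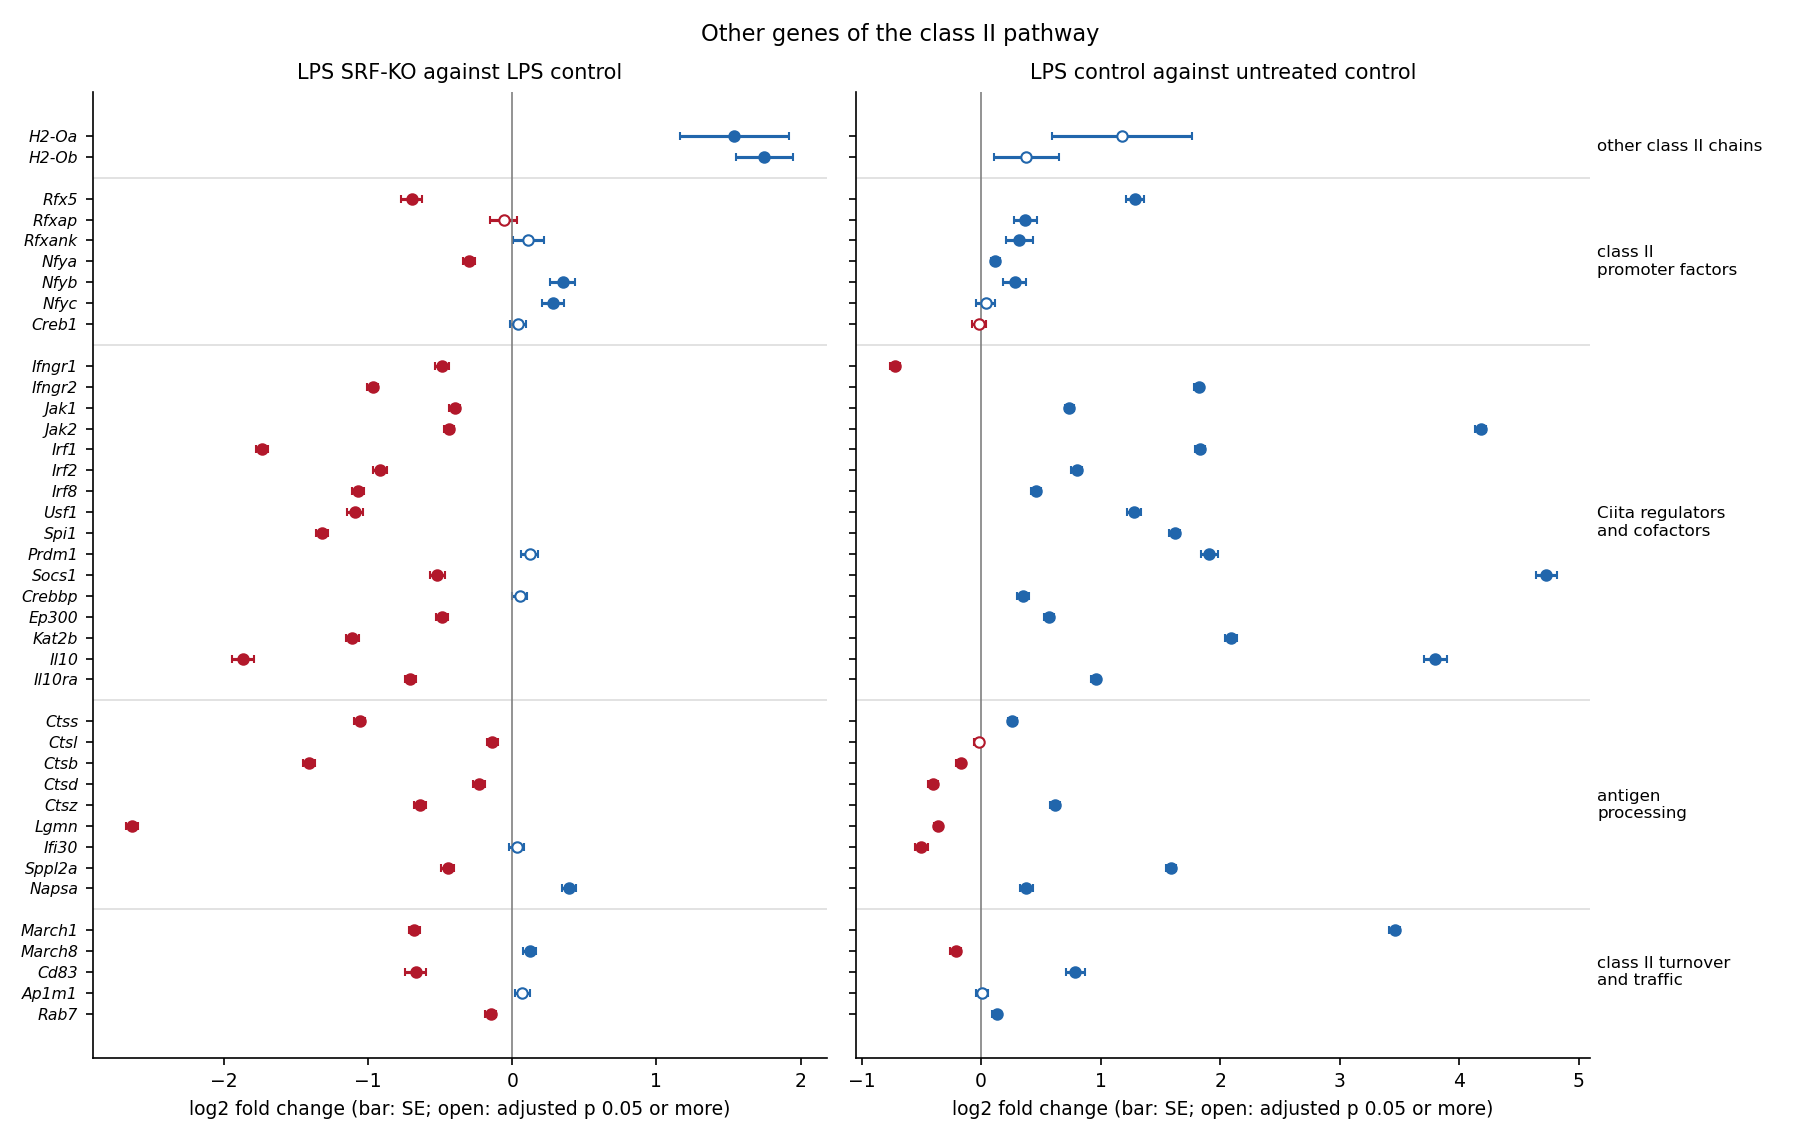
Log2 fold changes (horizontal axes, bars are SE, TMM scaling) of tested genes of the other class II lists, for LPS SRF-KO against LPS control (left) and LPS control against untreated control (right); open points had an adjusted p of 0.05 or more, and H2-Eb2 is left out for its low counts. Most of the Ciita regulators and cofactors plotted lie below 0 on the left and above 0 on the right, while H2-Ob lies above 0 on the left at 1.75, as does H2-Oa, which passed the filter on low counts only through LPS SRF-KO.

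Class II genes are also expressed by dendritic cells and B cells, so their markers were read in the same libraries. Of 10 macrophage markers all 10 were tested, and their summed level was 24300 to 24500 CPM in LPS SRF-KO, 23200 to 23600 CPM in LPS control and 17100 to 17600 CPM in untreated control. Lyz2 (means 12300, 8920 and 8260 CPM in these groups) and Cd14 (5360, 3190 and 249 CPM) together made most of the LPS SRF-KO sum. The sum thus follows mainly these genes, while 7 of the 10 markers were lower in LPS SRF-KO than in LPS control. Of 10 dendritic cell markers 4 were tested, and 3 of them were higher in LPS SRF-KO than in LPS control with both scalings, beside 39.1% of all tested genes with TMM. The sum of all 10 dendritic cell markers was 186 to 192 CPM in LPS SRF-KO, 40.1 to 47.1 CPM in LPS control and 40.2 to 44.4 CPM in untreated control. Most of it was Itgax, the integrin CD11c, which macrophages can also express, with 173 ± 3.33 CPM in LPS SRF-KO, 38.9 ± 2.79 CPM in LPS control and 40.3 ± 2.21 CPM in untreated control. Itgax, Ccr7 and Irf4 were higher in LPS SRF-KO against LPS control by 2.16, 2.03 and 3.67 on the log2 scale, in edgeR's quasi-likelihood test. Irf4 had 72 to 120 counts per LPS SRF-KO library but only 4 to 6 per LPS control library. Batf3 did not pass, with 2 to 4 counts per LPS SRF-KO library and 2 to 3 per LPS control library. Batf3 reached the level of the filter only through untreated control, so its counts were too few to compare these groups. All 6 untested markers were near or at 0. Flt3 had 1, 9 and 3 counts in LPS SRF-KO, 0 in each LPS control library and 1, 0 and 1 in untreated control. Zbtb46 had 5, 13 and 8 in LPS SRF-KO, 5, 6 and 1 in LPS control and 5, 3 and 0 in untreated control. Clec9a had 8, 4 and 1 counts in LPS SRF-KO, 5, 3 and 6 in LPS control and 2, 2 and 6 in untreated control. Xcr1 had at most 4 and Siglech at most 2 counts in any library, with no more in LPS SRF-KO than the highest LPS control library, and Cd209a had none in any library. Of the 10 markers, Itgax, Ccr7 and Irf4 were thus higher in LPS SRF-KO than in LPS control, as H2-Ab1 and Ciita were, and their part in those differences was not tested.

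B cell markers summed to 0.155 to 0.34 CPM in LPS SRF-KO, 0.905 to 1.52 CPM in LPS control and 1.58 to 2.22 CPM in untreated control, with Blk and Cr2 at 0 counts in every library. T and NK cell markers summed to 0.31 to 0.361 CPM in LPS SRF-KO, 2.07 to 2.52 CPM in LPS control and 3.2 to 5.41 CPM in untreated control, with Cd3d, Cd3g and Ncr1 at 0. A single tested gene carried most of the change in each sum. Cd79b had 3, 0 and 4 counts in LPS SRF-KO, 12, 16 and 9 in LPS control and 40, 28 and 32 in untreated control, and Cd4 had 0, 1 and 0 in LPS SRF-KO, 29, 28 and 36 in LPS control and 80, 102 and 54 in untreated control. Klrb1c, an NK cell marker with too few counts to be tested, ran otherwise, with 8, 7 and 6 counts in LPS SRF-KO, 0, 1 and 3 in LPS control and 6, 7 and 5 in untreated control. Among the macrophage markers 3 were higher and 7 lower in LPS SRF-KO against LPS control, with both scalings, beside 39.1% higher and 37.9% lower of all tested genes with TMM. Fcgr1 averaged 84.2 ± 5.04 CPM in LPS SRF-KO, 1850 ± 20 CPM in LPS control and 684 ± 11.3 CPM in untreated control, and Cd14, the LPS co-receptor, had log2 fold changes of 0.75 and 3.68.

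Genes with a similar pattern were sought among 9434 tested genes with a mean of at least 5 CPM, by the root mean square distance of their centred log2 CPM over the 9 libraries. Closest to Ciita were Ppp1r13l (distance 0.502), Piwil2 (0.549), Ttc19 (0.561) and Gpr141 (0.571). Ppp1r13l averaged 16.8 CPM in LPS SRF-KO, 6.87 CPM in LPS control and 3.21 CPM in untreated control. Closest to Cd74 were Fam193a (0.0536), Gm21981 (0.0556), Tomm6 (0.0573) and Snx17 (0.0687), and closest to the sum of the 3 chain genes were Gpi1 (0.0431), Mafg (0.0447), Tmem189 (0.0479) and Litaf (0.0521). The distances from Ciita were larger than those from Cd74 and the chain sum, and its counts were lower. None of the genes named here is on a class II list, but the search could not have returned a class II chain gene. The MHC class II genes described here were left out of the candidates. H2-Ob, H2-Oa and H2-Eb2 averaged below 5 CPM in every group, so they were left out as well. Whether class II chain genes resemble Ciita, Cd74 or the chain sum was therefore not tested by this search.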

How the data were processed

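Each deposited file lists raw read counts, whole numbers for 22524 Ensembl identifiers, for 1 library made with TruSeq stranded reagents, as the labels state. Tools named per the submitters' processing notes are featureCounts, STAR 2.5.4b, Trimmomatic, bcl2fastq 2.19 and edgeR, with the build GRCm38. Which annotation was counted, and whether strand was used, is not given in the sources used here. Sample titles gave the group and replicate number. Symbols were matched for 22214 of them, and positions and exon lengths came from GENCODE mouse release 21.

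The tests ran in edgeR 4.0.16 and limma 3.58.1 under R 4.3.3: filterByExpr with the 3 groups (11560 genes), TMM scaling and 1 robust quasi-likelihood fit (glmQLFit, glmQLFTest) over all 9 libraries with group as its term. Genes were called at a Benjamini-Hochberg adjusted p below 0.05 over all tested genes, with no minimum fold. Standard errors came from the fold change and the F statistic. A sum of 1 to 3 counts got a ratio with an exact 95% interval, which covers counting error only. CPM is given as mean ± SD of 3 libraries. In simulated counts at these depths, with 200 genes changed 2-fold, the fit recovered 100% of them for LPS SRF-KO against LPS control, 99% for LPS control against untreated control and 100% for LPS SRF-KO against untreated control. Each simulated fit held only the 2 groups compared, not all 9 libraries, and every gene was given the same spread. The changed genes were few, were raised and lowered in equal number and excluded genes with low counts, whereas most tested genes were called in the data. The simulation therefore cannot speak to the choice of scaling, to genes with few counts or to genes that vary more between libraries. Among all 9 pairs of libraries within groups, counts differed by more than sampling noise (chi-square per degree of freedom 1.75 to 3.95). Each library was kept as its own replicate, though technical replicates can also differ in this way. The common coefficient of variation between libraries of a group, beyond counting noise, was 3.46%.

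The 8 genes and 9 further lists (82 genes, of which 78 were counted) were chosen with earlier results of these data known. The text names all 8 genes, every gene of a list of up to 8 genes, or otherwise the 4 genes of a list with the smallest called p in either of the first 2 comparisons, and the 4 nearest genes in the search for similar patterns. A few genes that this rule or the lists hold are not reported here, though list counts and sums include them. A few low markers (Flt3, Zbtb46, Clec9a, Xcr1, Siglech, Cd209a, Blk and Cr2) and the overlapping genes Dexi and Brd2 were named after their values had been seen. Alternatives were DESeq2 1.42.0 (its size factors, and its Wald test), library totals, no filter, a replicate block, only the groups compared, and each replicate left out.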

Additional observations from a re-analysis of the deposited data

How the results depend on the processing

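H2-Ab1 in all 3 comparisons, Ciita in both LPS SRF-KO comparisons and H2-Aa in both comparisons with untreated control kept direction and call under all 15 alternatives. So did the lower Cd74 and H2-DMa in LPS SRF-KO against untreated control. H2-DMb2 kept its direction and stayed not called in both LPS SRF-KO comparisons. H2-Ab1 ranged from 0.76 to 1.13 for LPS SRF-KO against LPS control and from 0.22 to 0.80 for LPS control against untreated control on the log2 scale, and Ciita from 1.45 to 2.05 for LPS SRF-KO against LPS control. Over the log2 fold changes of the 8 genes, 322 of 360 alternative values kept direction and call, 19 turned direction, 12 lost the call and 7 gained one. Library totals moved most, because they shift all genes: for LPS SRF-KO against LPS control 5 of the 8 genes were higher and 0 lower, and 7059 of all genes higher and 2434 lower (3, 3, 4521 and 4384 with TMM), and for LPS control against untreated control 1 was higher and 6 lower, and 2428 and 7835 of all genes (3, 1, 4722 and 4721 with TMM). Directions turned with library totals for H2-Aa (0.19) and H2-DMb1 (0.35) in LPS SRF-KO against LPS control, for H2-DMa (-0.54), H2-DMb1 (-0.53) and Cd74 (-0.40) in LPS control against untreated control, and for H2-Eb1 (-0.13) and H2-DMb1 (-0.18) in LPS SRF-KO against untreated control. With no filter H2-DMb1 in LPS SRF-KO against LPS control and H2-DMa in LPS control against untreated control came to 0. Leaving out 1 replicate gave H2-DMb1 -0.05 to 0.05 in LPS SRF-KO against LPS control, and in LPS control against untreated control H2-DMa -0.03 to 0.06 and H2-DMb1 -0.02 to 0.07. In LPS SRF-KO against untreated control it gave H2-Eb1 -0.05 to 0.15 and H2-DMb1 -0.02 to 0.07. The genes counted as called by leaving out 1 replicate ranged from 2 to 3 in each direction for LPS SRF-KO against LPS control, and from 1 to 3 higher and 1 to 2 lower for LPS control against untreated control, with 1 higher without LPS control replicate 3. For LPS control against untreated control DESeq2's Wald test called 1 of the 8 higher, and 2 were lower with no filter, with the replicate block and with only the 2 groups compared, the second being H2-Eb1 (-0.15, adjusted p = 0.0415 with the block). The replicate numbers gave no sign of pairing: the deviations of the 9 same-numbered pairs correlated between -0.0746 and 0.0971, and those of differently numbered pairs between -0.11 and 0.111. A shared origin of same-numbered libraries was not tested otherwise. Other than for library totals and fewer libraries or genes, the cause of these changes was not tested. Depth limits Ciita and H2-DMb2, with 5 to 37 Ciita counts in libraries other than LPS SRF-KO.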
